A study of Mus musculus with 3 samples.

Results

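Nuclei rich in corneal endothelium markers were picked out by a fixed rule from 3 single-nucleus RNA libraries of whole mouse cornea. The rule was applied to barcodes with at least 500 genes and at most 5% mitochondrial UMIs (unique molecular identifiers, each standing for a captured transcript). A barcode was taken when it held UMIs of at least 5 of 10 genes and when their summed share of its UMIs was at least 5 times the share of these genes over all barcodes of its library. The genes were Slc4a11, Car3, Col8a2, Cldn10, Npnt, Ednrb, Atp1b1, Chst5, Col4a4 and Tspan6. In all, 2628 of 315471 qualifying barcodes met the rule, and they are called marker-rich barcodes below. Levels of these 10 genes chose the barcodes, so those levels are given as a description and support nothing.

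The libraries came from wild-type mice (WT), untreated mice lacking Aire (KO), and mice lacking Aire given PBS, phosphate-buffered saline, for 14 days (KO_PBS). Aire acts in the thymus, where it lets developing T cells meet tissue antigens, and its loss leads to autoimmune disease that includes dry eye. Each group is 1 library of nuclei pooled from frozen corneas of 5 mice aged 7 weeks, so differences between libraries lack replicates and are given without p-values. The labels name no allele or strain, and the series text gives another age, 6 weeks, with day 7 of treatment. KO_PBS differs from KO in treatment alone by its labels, and both lack Aire. Intervals cover counting error only, and fewer cells of a type cannot be told apart from less RNA per cell.

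The corneal endothelium is a single layer of cells on the inner face of the cornea. It pumps fluid out of the stroma to keep the cornea clear, using sodium-potassium ATPase, bicarbonate transport and carbonic anhydrases. It also secretes Descemet's membrane, a thick basement membrane rich in type IV and type VIII collagen. Of the rule genes, Slc4a11 is a membrane transporter mutated in congenital corneal endothelial dystrophy, and Atp1b1 is the beta subunit of the sodium pump. Car3 is a carbonic anhydrase, Cldn10 a tight junction claudin, and Ednrb an endothelin receptor. Col8a2 and Col4a4 are collagen chains, Npnt is the matrix protein nephronectin, Chst5 a sulfotransferase and Tspan6 a tetraspanin.

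Marker-rich barcodes numbered 1199 of 96547 qualifying barcodes in WT, 1.24% (exact binomial 95% interval 1.17 to 1.31%). They numbered 955 of 107025 in KO, 0.892% (0.837 to 0.950%), and 474 of 111899 in KO_PBS, 0.424% (0.386 to 0.463%). This order of the libraries depends on the rule. Thinned to 1000 UMIs per barcode, the shares were 0.399%, 0.139% and 0.518% for WT, KO and KO_PBS, with KO_PBS highest. The level that a barcode had to reach also differed, because it follows each library's own share of the 10 genes. As a share of a barcode's UMIs it was 0.318%, 0.193% and 0.949% for WT, KO and KO_PBS. With the KO_PBS level in every library, 143, 33 and 474 barcodes met the rule in WT, KO and KO_PBS, and with the KO level 1933, 955 and 8525 did. The counts are therefore not read as numbers of endothelial cells.

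The marker-rich barcodes were somewhat larger than the rest. Their median was 2715 UMIs, 3411 and 2372 for WT, KO and KO_PBS, against 2257, 2976 and 1444 in the other qualifying barcodes, called other barcodes below. Their UMIs summed to 3784652, 3519864 and 1310267 for WT, KO and KO_PBS, of 256852883, 352627863 and 178988562 in the whole libraries. Just inside the threshold, at 5 to 5.5 times the library share, lay 152, 94 and 127 barcodes, and just outside, at 4.5 to 5 times, 155, 112 and 164. The median was 7.57 times, 8.02 and 6.14 for WT, KO and KO_PBS, with the highest at 38.8, 58.1 and 13.6. At the edge of the other condition, 308, 290 and 20 marker-rich barcodes held exactly 5 rule genes, and 200, 297 and 9 barcodes were left out with 4. The counts outside the share edge were higher in every library, by the least in WT. WT and KO shared 2833 barcode sequences, WT and KO_PBS 2998, and KO and KO_PBS 3379, and no sequence was marker-rich in more than 1 library. Aire, the targeted gene, had 1 UMI in the marker-rich barcodes of WT and 0 in those of KO and KO_PBS. Over whole libraries it had 15, 27 and 68 UMIs, so it does not check the labels.

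The rule genes were also read with each left out in turn. They were chosen with earlier results of these data known, so a higher level of each was largely set beforehand and supports nothing. Most barcodes chosen without a gene were also marker-rich, 1046 of 1096 for Slc4a11 in WT. Each gene was read in barcodes chosen by the other 9 (at least 5 of them, same 5-fold share) and set against the remaining barcodes of the library, as a ratio of CPM, which are a gene's UMIs scaled to all UMIs of the barcodes summed. All 10 genes were at least 2-fold higher in every library. The ratios ran from 8.09 to 12.9 in WT with a median of 9.21, from 6.89 to 12.1 in KO with a median of 9.97, and from 4.35 to 9.76 in KO_PBS with a median of 6.94. Car3 had the highest ratio in WT and KO, and Col4a4 the highest in KO_PBS. For Slc4a11, 54.9% of the barcodes chosen without it had a UMI in WT, against 10.7% of other barcodes matched on UMIs, with a median of 2793.5 UMIs in both. These shares were 66.3% and 13.3% in KO, and 84.9% and 27.7% in KO_PBS. Slc4a11 UMIs thus also occurred well outside the marker-rich barcodes.

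**Figure D1:**
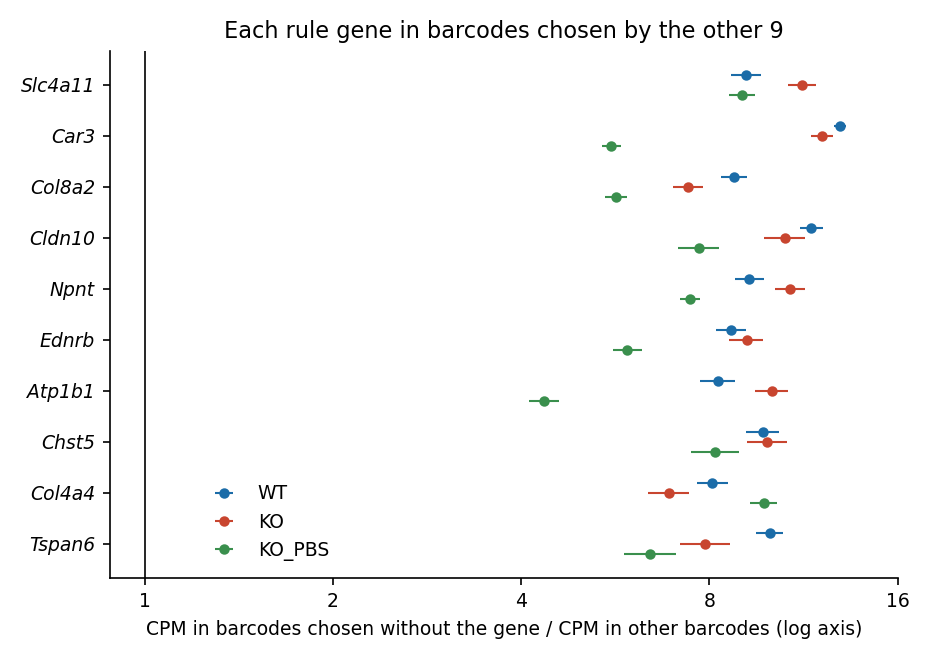
Ratio of CPM for each of the 10 rule genes in barcodes chosen by the other 9 over CPM in the other barcodes of the same library, on a log axis, with exact 95% Poisson intervals (counting error only). Every point lies right of the line at 1, from 4.35 for Atp1b1 in KO_PBS to 12.9 for Car3 in WT. The genes were chosen with earlier results of these data known, so this is a description.

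Slc4a11 lies at chr2:130684107-130697519 in GRCm38.p6. The summed rule genes made up a small part of the RNA in these barcodes, 0.634%, 0.389% and 1.35% for WT, KO and KO_PBS. Car3 had the highest level of the 10 in each library, at 2341, 863 and 2720 CPM, in the order WT, KO, KO_PBS. Cldn10 was at 704, 237 and 601 CPM, Col8a2 at 543, 456 and 1981 CPM, and Slc4a11 at 397, 495 and 1483 CPM. Krt12, the keratin of corneal epithelium and not an endothelial gene, was at 21041, 11900 and 3595 CPM, which is 0.803, 0.862 and 0.578 times its level in other barcodes. RNA of the epithelium was thus present in marker-rich barcodes at a level near that of the rest, lowest in KO_PBS. What part of the RNA in a barcode came from its own nucleus was not tested.

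Beyond the rule, 151 of 8358 genes were enriched in the marker-rich barcodes of every library, 1.81%. Enriched means at least 20 UMIs, at least 2-fold above other barcodes, and intervals that do not overlap. By library, WT had 585 of 10289 genes enriched (5.69%), KO 256 of 11073 (2.31%) and KO_PBS 818 of 9272 (8.82%). Against other barcodes matched on UMIs, 586, 258 and 507 genes were enriched, so KO_PBS had the most only without matching. With one absolute share for all libraries, the highest or lowest of the 3, the genes enriched in every library numbered 69 or 49. The 25 genes with the largest of their lowest ratio included Tmem178, Dkk1, Slc14a1, Frem3, Car9, Fgf1, Srpx2, Nphs1, Cnmd, Fst, Col4a3, Thbd, Slc7a8, Gfra1 and Cdh2. They were accompanied by Mchr1, Gprc5c, Clstn3, Slc7a3, Ano5, Gpr4, Crb2, Mia, Pou3f3 and Tnnc1. Mia overlaps a gene listed for KO_PBS only, so its counts in KO_PBS are not comparable with those in WT and KO. Slc14a1, a urea transporter, was at 122 CPM in WT (111 to 134), 112 in KO (102 to 124) and 494 in KO_PBS (457 to 534). In other barcodes it was at 13.1, 14.0 and 53.8 CPM, so its ratio was 9.33, 8.01 and 9.19.

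**Figure D2:**
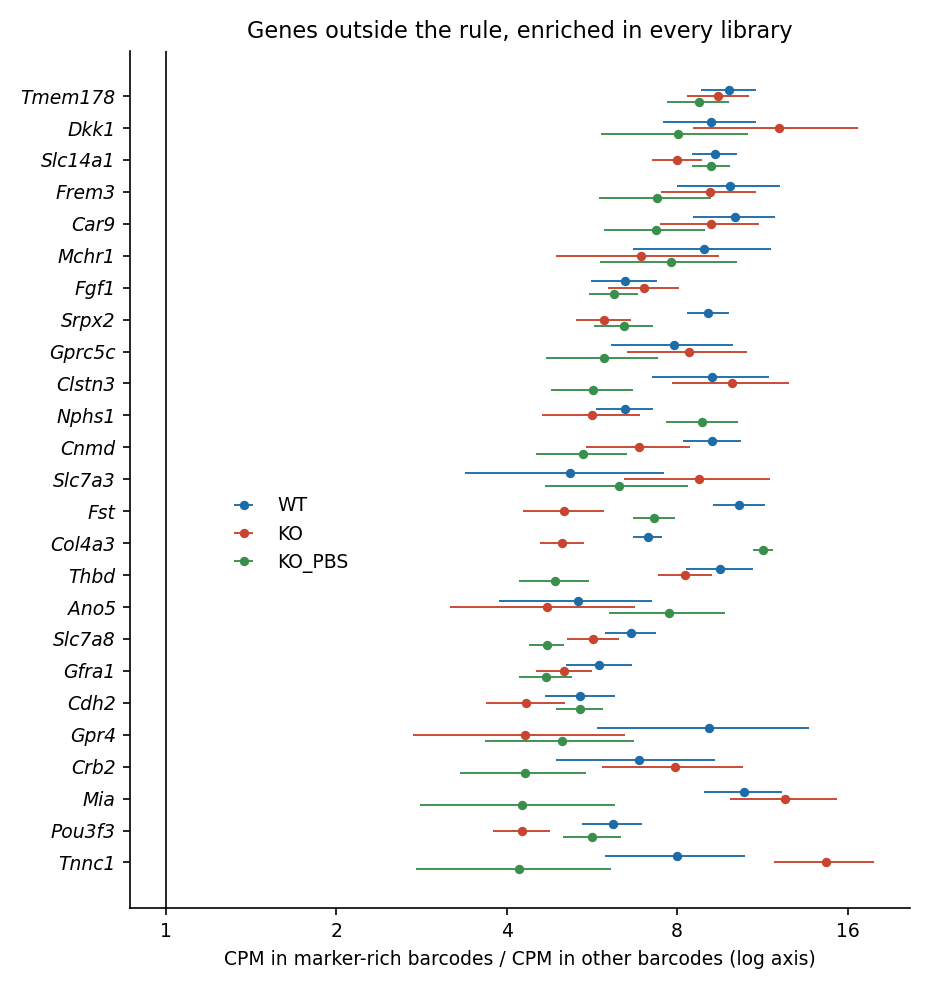
Ratio of CPM in marker-rich over other barcodes for the 25 genes outside the rule with the largest of their lowest ratio, on a log axis, with exact 95% Poisson intervals (counting error only). All 25 lie above 4 in each library, from 4.20 for Tnnc1 in KO_PBS to 14.6 for Tnnc1 in KO. Mia overlaps a gene listed for KO_PBS only, so its KO_PBS point is not comparable with the others.

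Dkk1, a secreted inhibitor of Wnt signalling, had 112, 37 and 46 UMIs in marker-rich barcodes of WT, KO and KO_PBS and ratios of 9.18, 12.1 and 8.01. Dkk2, Wnt5a and Fgf10 were enriched in every library too, and were chosen after their values were seen. Dkk2, a related Wnt modulator, was at 196, 282 and 854 CPM, with ratios of 3.39, 2.15 and 5.53. Wnt5a, a Wnt ligand, was at 76.1, 125 and 318 CPM (ratios of 3.22, 2.39 and 5.40). Fst, or follistatin, which binds and blocks activins, was at 96.5, 41.3 and 404 CPM, with ratios of 10.3, 5.06 and 7.29. Fgf1 and Fgf10 are fibroblast growth factors. Fgf1 had ratios of 6.46, 7.00 and 6.18, and Fgf10 of 5.16, 4.01 and 12.4. Cnmd, or chondromodulin, an inhibitor of vessel growth, had ratios of 9.23, 6.86 and 5.45. Thbd, or thrombomodulin, a surface anticoagulant best known from vascular endothelium, had ratios of 9.53, 8.27 and 4.86.

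Aqp1, the water channel aquaporin 1, was at 574, 618 and 1447 CPM, with ratios of 7.88, 4.15 and 5.97. Slc4a4, a sodium bicarbonate cotransporter, was at 194, 244 and 1719 CPM, with ratios of 3.74, 2.81 and 4.57. With the reference matched on UMIs the ratios of Slc4a4 were 3.87, 2.75 and 2.67, so KO_PBS went from the highest to the lowest. These were the 2 enriched in every library of the 22 pump and transport genes tested outside the rule. The share over all genes was 1.81%. Bsg, or basigin, which chaperones lactate transporters to the membrane, was among the most abundant enriched genes at 3220, 2273 and 3040 CPM, with ratios of 5.32, 5.73 and 4.07. Slc16a3, a lactate transporter, had a ratio of 9.07 in WT from 35 UMIs, and 1.78 in KO and 2.07 in KO_PBS. Car9, a membrane carbonic anhydrase, and the amino acid transporters Slc7a3 and Slc7a8 were among the 25 named genes.

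Type IV collagen chains, which Descemet's membrane holds, were higher in marker-rich barcodes. Of 31 matrix genes tested outside the rule, 7 were enriched in every library, beside 1.81% of all genes, and they were Col4a1, Col4a2, Col4a3, Col4a5, Col4a6, Timp3 and B3gnt7. Col8a1, the partner chain of Col8a2, was at 148, 175 and 1752 CPM with ratios of 3.78, 1.995 and 7.24, and its KO ratio lay just below the 2-fold limit. Col4a3 was at 290 CPM in WT (273 to 308), 145 in KO (133 to 158) and 1807 in KO_PBS (1735 to 1881), with ratios of 7.10, 5.02 and 11.4. Col4a1 had ratios of 7.20, 3.06 and 4.75, and Col4a2 of 6.74, 2.97 and 4.39. Col4a5 had ratios of 3.28, 2.56 and 5.30, and Col4a6 of 2.89, 2.01 and 6.21. With the reference matched on UMIs, Col4a5 was at 3.39, 2.57 and 3.26, and Col4a6 at 3.09, 1.93 and 3.65. Timp3 was at 3.33, 1.99 and 1.97 with that reference, so Timp3 and Col4a6 lost the call of enrichment in every library. Col8a1 passed the 2-fold limit in each there, at 3.84, 2.06 and 5.43. The 5 type IV chains outside the rule were thus higher in marker-rich barcodes. With Col4a4, a rule gene, they lie in 3 divergent pairs of the GRCm38.p6 annotation. Col4a1 and Col4a2 on chromosome 8 overlap by 85 bases, Col4a4 (chr1:82448419-82587034) and Col4a3 (chr1:82586921-82722059) overlap by 114 bases, and Col4a6 and Col4a5 on chromosome X lie 1274 bases apart. The stromal collagen gene Col1a1 had ratios of 1.01, 0.924 and 0.641, and Col6a1 of 0.893, 0.872 and 0.576. These 2 genes do not stand for stromal RNA. The sum of 12 markers of keratocytes, the resident cells of the stroma, was above other barcodes in every library, at ratios of 1.52, 1.07 and 1.27. The median ratio over the 11 of them tested was 1.20, 0.963 and 0.871, so the sum is not read as a rise of the list.

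Cdh2, or N-cadherin, the main cadherin of corneal endothelium, had ratios of 5.40, 4.33 and 5.38, and Ncam1, a neural cell adhesion molecule, of 3.82, 2.94 and 3.28. These were 2 of 24 junction genes tested, beside 1.81% of all genes. Tjp1, the tight junction scaffold ZO-1, had ratios of 1.29, 1.10 and 2.48. Of 23 transcription factors tested, 3 were enriched in every library, beside the same 1.81%, Tfap2b and Lmx1b among them. Tfap2b, an AP-2 factor needed for corneal endothelium development in mice, had ratios of 3.03, 2.15 and 6.56, and Lmx1b, a LIM homeodomain factor, of 2.54, 2.11 and 5.80. Against other barcodes matched on UMIs, Lmx1b was at 1.96 in KO, under the 2-fold limit. Foxc1 of the same list had ratios of 0.955, 1.18 and 1.34, and Pax6, which is high in epithelium, of 0.813, 0.906 and 0.588. Tcf4, the gene most often linked to Fuchs endothelial dystrophy, had ratios of 2.23, 1.35 and 3.89.

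Promoters of enriched genes were searched for short sequences bound by Tfap2b and Lmx1b. The motifs were TAATTA for Lmx1b and GCCNNNGGC for Tfap2b, on both strands of the 250 bases before each RefSeq start in GRCm38.p6. Of the 151 enriched genes 108 matched the promoter table, with 139 promoters. GCCNNNGGC occurred in 20.9% of them and in 13.7% of all 32851 promoters, and TAATTA in 2.88% and 4.84%. A match is a description and not a site of binding. The upstream bases of Aqp1 (chr6:55336049-55336298, plus strand), Tnnc1 (chr14:31208062-31208311, plus strand) and Col8a1 (chr16:57754738-57754987, minus strand) are shown because these genes stand for transport, contractile and matrix roles among the higher genes. They overlap no annotated exon. Col8a1 is not among the 151 enriched genes, and these examples do not stand for the shares of promoters with a match. Capitals mark matches, which are GCCNNNGGC in Aqp1 and Tnnc1, and Col8a1 holds none.
Aqp1: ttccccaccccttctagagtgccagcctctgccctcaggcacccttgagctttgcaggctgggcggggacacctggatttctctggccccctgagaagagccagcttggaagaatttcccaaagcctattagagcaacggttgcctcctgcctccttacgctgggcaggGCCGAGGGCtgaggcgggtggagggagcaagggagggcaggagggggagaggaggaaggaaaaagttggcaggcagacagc
Tnnc1: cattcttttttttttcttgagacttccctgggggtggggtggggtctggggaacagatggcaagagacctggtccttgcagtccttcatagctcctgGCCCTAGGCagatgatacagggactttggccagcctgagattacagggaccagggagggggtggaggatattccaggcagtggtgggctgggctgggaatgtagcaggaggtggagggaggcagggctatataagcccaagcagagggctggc
Col8a1: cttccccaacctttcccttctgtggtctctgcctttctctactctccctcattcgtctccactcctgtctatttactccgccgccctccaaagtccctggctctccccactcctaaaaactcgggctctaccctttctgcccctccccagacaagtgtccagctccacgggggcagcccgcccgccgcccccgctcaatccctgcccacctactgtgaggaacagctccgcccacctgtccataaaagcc
The match in Aqp1 lies 81 bases before the start, and that in Tnnc1 153.

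Several genes outside the rule rose with the share of rule genes in a barcode. The ranges are cut on the same share that chose the barcodes, and Aqp1 and Slc14a1 were already known to be enriched there. Their rise was thus largely set beforehand and is given as a description that supports nothing. Barcodes at 3 to 5 times the library share, which are not marker-rich, already had Aqp1 at 3.02, 1.94 and 2.92 times its level in other barcodes of WT, KO and KO_PBS. At 10 times and over the ratios were 12.5, 6.43 and 8.53. Slc14a1 went from 3.28, 3.11 and 4.28 to 15.3, 13.4 and 15.0, and Col8a1 from 1.91, 1.42 and 4.05 to 5.56, 2.53 and 10.6. The lens gene Cryaa also rose in KO, through 1.24, 1.75, 2.17 and 2.56, but fell in KO_PBS, from 0.867 to 0.566, and had no steady order in WT. The keratocyte gene Kera had no steady order in WT or KO. Krt12 went down, from 0.949, 0.948 and 0.795 to 0.654, 0.785 and 0.305. In KO_PBS the top range held 23 barcodes, against 356 in WT and 306 in KO. The order of the ranges was the same in every library for Aqp1, Slc14a1, Col8a1 and Krt12, while the sizes differed. Thbd in KO_PBS was an exception to the steady rise, at 6.23 in the range of 7 to 10 times and 5.14 above it, with overlapping intervals.

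**Figure D3:**
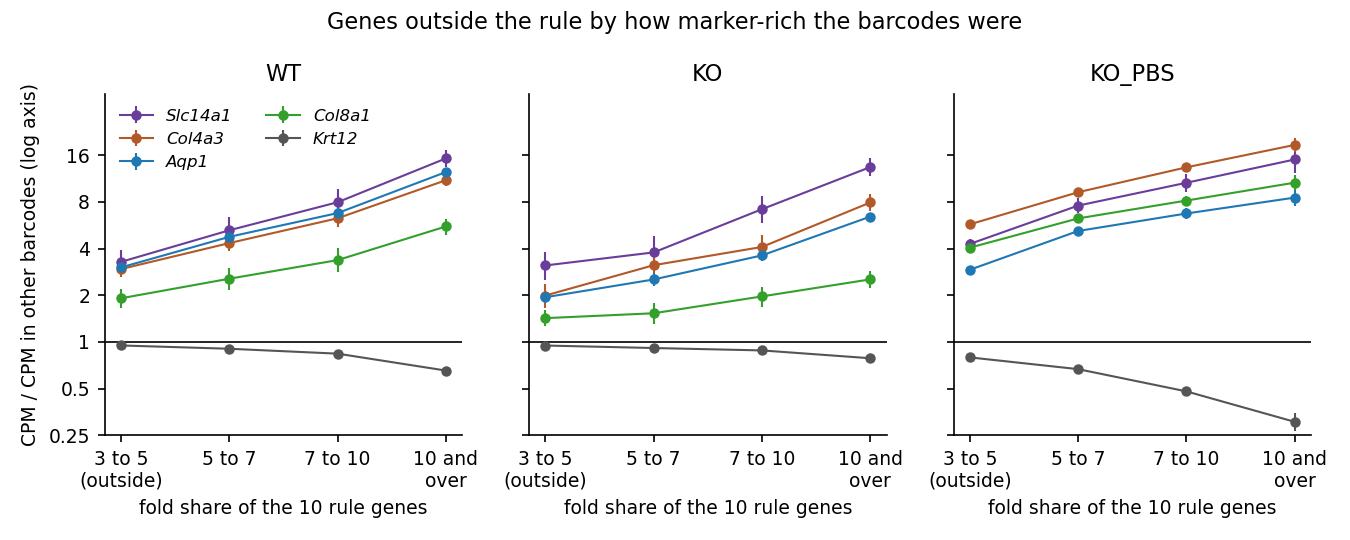
CPM over CPM in other barcodes (log axis) for Slc14a1, Col4a3, Aqp1, Col8a1 and Krt12 by the fold share of the 10 rule genes, 1 panel per library, with exact 95% Poisson intervals. Slc14a1, Col4a3, Aqp1 and Col8a1 rise from left to right in every panel, and Krt12 falls, to 0.305 in KO_PBS. The ranges use the share that chose the barcodes, so this is a description.

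Markers of other cell types that a cornea preparation can hold were read from lists of 12 genes each. Epithelial markers were below other barcodes for 12 of 12 genes in every library, with summed ratios of 0.807, 0.876 and 0.584 in WT, KO and KO_PBS. Keratocyte markers, for the resident cells of the stroma, had summed ratios of 1.52, 1.07 and 1.27, with 8, 5 and 5 of 12 genes above other barcodes. Lens markers, of which 11 were in every gene list, had summed ratios of 2.11 in WT and 2.28 in KO but 0.666 in KO_PBS. Their summed level was 1576, 618 and 6043 CPM for WT, KO and KO_PBS, beside 748, 271 and 9076 in other barcodes. The level itself was thus highest in KO_PBS. Cryaa, a lens alpha crystallin, was at 1.67, 2.15 and 0.645 times other barcodes, and Cryab, also made outside the lens, at 2.83, 3.24 and 1.01. Of the marker-rich barcodes, 61 in WT (5.09%) and 23 in KO (2.41%) also met the same kind of rule for lens, against 0.823% and 0.170% of other barcodes, and 0 of 474 did in KO_PBS (a count of 0 allows up to 3). Counting every class, 98 in WT (8.17%), 34 in KO (3.56%) and 6 in KO_PBS (1.27%) met a second rule. The epithelial rule was met by 0 barcodes of any kind in each library, so this count cannot show mixing with epithelium. The level each rule asks for follows the library's own share of the list, so these counts are not compared between libraries. Vascular endothelium markers were at 52.5, 88.4 and 150 CPM summed, with ratios of 1.50, 1.06 and 0.705. In WT, 2 of them had 20 UMIs or more and both were enriched, Kdr at 2.37 and Egfl7 at 2.26, while Pecam1 was at 1.44 from 19 UMIs. The ratio of 2.42 for ciliary epithelium in KO_PBS came from Tenm2, which was at 8.68, while Zic1 was at 0.520 and Slc6a13 at 0.569. Without the barcodes that met a second rule, 137 genes were enriched in every library, of which 136 were among the 151. In the comparisons given further on, leaving them out gave 22 higher and 25 lower genes for KO over WT, 490 and 116 for KO_PBS over KO, and 327 and 48 for KO_PBS over WT, beside 19 and 28, 484 and 110, and 311 and 48 with them.

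**Figure D4:**
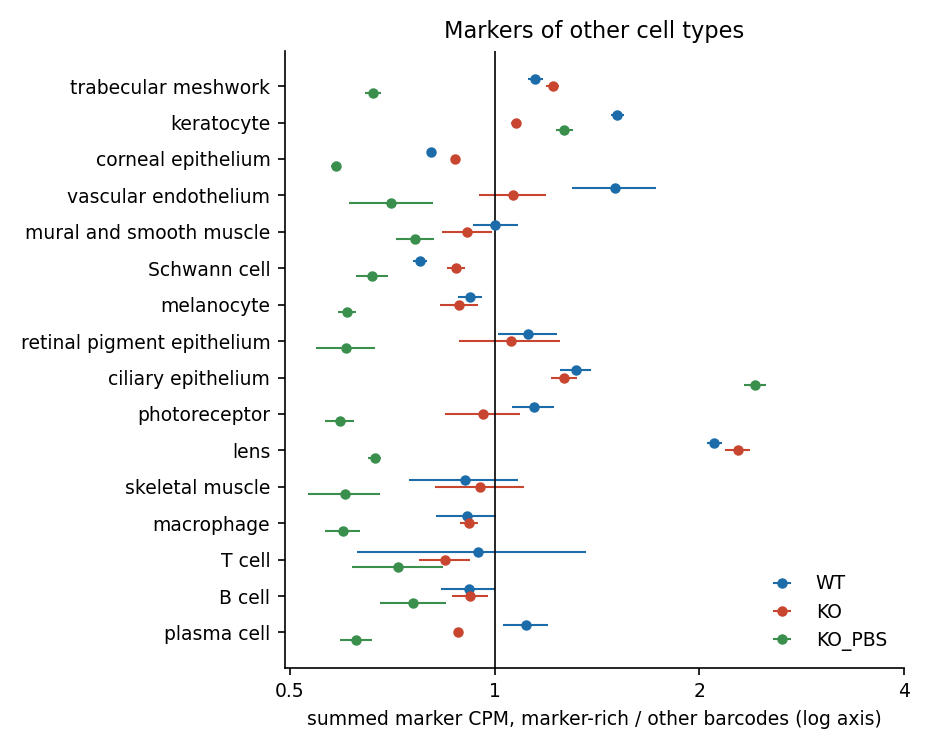
Summed CPM of markers of other cell types in marker-rich over other barcodes, on a log axis, with exact 95% Poisson intervals (counting error only). Lens lies at 2.11 in WT and 2.28 in KO but at 0.666 in KO_PBS, where most lists lie below 1.

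KO and WT marker-rich barcodes were compared next, as 1 library each, so the genotype and the library cannot be told apart. Of 10194 genes with at least 50 UMIs over both sums, 19 were higher (0.186%) and 28 lower in KO (0.275%), meaning at least 2-fold, without overlap of intervals, and at least 2-fold further than in other barcodes. With no UMI minimum, 66 were higher and 61 lower. Without the last condition 1725 were at least 2-fold higher and 265 lower. The median log2 ratio over all genes was 0.29 in marker-rich and 0.38 in other barcodes. Centred on that median, 25 genes were called each way, while 40.4% of calls were higher without centring. Interferon genes differed alike in both kinds of barcode. All 40 interferon and antigen presentation genes were at least 2-fold higher in KO, with a median log2 ratio of 3.40 against 3.51 in other barcodes, and 0 of 40 were counted.

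Of the 28 genes lower in KO, 21 were enriched over other barcodes in WT, beside 5.69% of all genes there, and the call itself favours such genes. Mt3, a metal-binding metallothionein, was at 81.2 CPM in WT (72.3 to 90.8) and 14.0 in KO (10.3 to 18.5), 5.81-fold lower, beside 11.4 and 4.93 in other barcodes. Apoe, a lipid carrier, was at 1794 CPM in WT (1751 to 1837) and 758 in KO (730 to 787), 2.37-fold lower, while in other barcodes it was at 498 and 562. Fst was 2.34-fold lower, at 41.3 against 96.5 CPM. Jam2, a junctional adhesion molecule, went from 38.5 CPM in WT to 12.8 in KO, and in other barcodes at 7.65 and 7.38. Scx, a tendon and matrix transcription factor, was at 26.5 and 7.98 CPM. Ecrg4, a secreted peptide precursor, was 2.61-fold lower, and Gm1673 2.11-fold. Over the 10 alternative settings of the analysis, Mt3, Apoe and Jam2 were called in 9 each, Fst and Gm1673 in 7, and Ecrg4 and Scx in 6. In these and later counts of settings, 1 of the 10, no UMI minimum, keeps every call by its own terms. Thinned to 1000 UMIs, 17 genes were lower, of which 5 were among the 28.

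Of the 19 genes higher in KO, 4 were also enriched over other barcodes in KO, beside 2.31% of all genes, and here too the call favours such genes. Chil1, a secreted chitinase-like protein that is abundant in trabecular meshwork, reached 611 CPM in KO (585 to 637), with 13.8 (10.3 to 18.1) for WT, 44.3-fold higher, beside 210 and 13.3 in other barcodes. It was called in 10 of 10 settings. Col23a1, a membrane collagen, reached 126 CPM in KO (115 to 138), with 11.1 (8.03 to 15.1) for WT, against 32.5 and 10.6 in other barcodes, and was called in 9. Gpha2, a glycoprotein hormone subunit, was at 1111 CPM in KO and 384 in WT, and Spock1, a matrix proteoglycan, at 23.1 and 10.9. Gpha2 was called in 8 settings and Spock1 in 6. Trabecular meshwork markers, of which Chil1 is 1, had summed ratios of 1.15 in WT and 1.22 in KO, and Rspo4 of that list had 0 UMIs. The sum in KO was 2356 CPM against 1936 in other barcodes and holds Chil1, at 611 against 210. The median ratio over the 7 genes of the list tested in KO was 1.01, so the 1.22 is not read as a rise of the list. The trabecular rule was met by 4 marker-rich barcodes in WT and 2 in KO. The part of trabecular RNA in the change of Chil1 was not tested.

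The other named higher genes mark white blood cells. S100a8, a neutrophil protein, reached 269 CPM in KO (252 to 287), with 1.33 (0.431 to 3.09) for WT, beside 217 and 2.21 in other barcodes, and was called in 4 of 10 settings. Lcp1, an actin-bundling protein of leukocytes, had 250 UMIs in KO, 71.3 CPM (62.7 to 80.7), beside 2 UMIs in WT. Slfn4, an interferon-induced gene of myeloid cells, was at 70.7 CPM in KO and 1.33 in WT, and Dock10, a leukocyte signalling protein, at 51.9 and 1.59. Lcp1, Slfn4 and Dock10 were below their level in other barcodes of KO, which was 80.4, 78.3 and 61.0 CPM. They were counted because they were lower still, relative to other barcodes, in WT. Slfn4 was called in 2 of 10 settings.

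**Figure D5:**
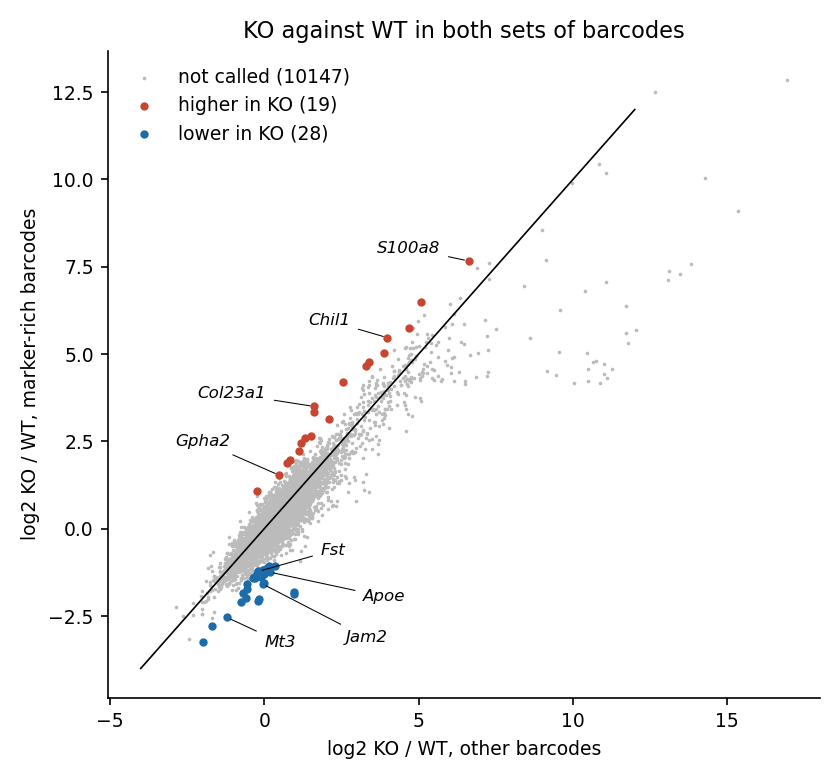
Log2 ratio of KO over WT in marker-rich barcodes (vertical axis) and in other barcodes (horizontal axis), 1 point per gene for 10194 genes, with counts under 3 set to 3 and the line of equal ratios. The 19 higher genes lie above the line and the 28 lower genes below it.

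No gene of the pump, Descemet matrix, transcription factor, dystrophy or mesenchymal lists was counted in either direction between KO and WT. With 0.186% of all genes higher and 0.275% lower, such counts of 0 say nothing about these lists. Outside the rule, the pump list had 25 genes tested with a median log2 ratio of 0.55, the matrix list 32 with 0.93 and the transcription factor list 22 with 0.46, against 0.75, 1.18 and 0.53 in other barcodes. The junction list had 2 of 26 lower, Jam2 and Nectin3 (a junction protein whose direction turned in 1 of 10 settings), and the oxidative stress list 1 of 28 lower, Mt3. Beside 0.275% of all genes lower, 1 or 2 genes of a list are read as single genes and not as a change of the list. Sod3, an extracellular superoxide dismutase, went from 44.8 CPM in WT to 195 in KO, 2.12 on the log2 scale, and was not counted because it also differed in other barcodes. Slc4a11 had 397 CPM in WT beside 495 in KO. Car3 was at 2341 and 863 CPM and Cldn10 at 704 and 237 CPM, with 173 and 65.8 CPM of Car3 and 54.8 and 19.2 of Cldn10 in other barcodes. These are rule genes, and the threshold follows each library's level of them, so nothing is read from them.

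KO_PBS was set against KO, which has the same genotype and no treatment. Each is 1 library, so the treatment and the library cannot be told apart. The KO_PBS library also came with another gene list, of 31053 IDs against 32285 in KO, and only the 30406 IDs in every list were compared. Of 9879 genes, 484 were higher in KO_PBS (4.90%) and 110 lower (1.11%). Of the higher genes, 385 were also enriched over other barcodes in KO_PBS, beside 8.82% of all genes there, which the call favours by its own terms. Centred on the median gene, 356 were higher and 146 lower, which took the share of higher genes from 81.5% to 70.9%. With other barcodes matched on UMIs, 182 were higher, of which 178 were among the 484. Thinned to 1000 UMIs, 391 were higher and 22 lower, and with a minimum of 1000 genes 336 were higher. Of the 484 genes 18 were called in all 10 settings, and of the 110 genes 2 were.

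Markers of other eye tissues also differed between these libraries, with median log2 ratios for KO_PBS over KO of 5.00 for photoreceptor, 3.98 for melanocyte and 3.53 for lens markers in marker-rich barcodes. They were 5.31, 4.82 and 5.26 in other barcodes. Chsy3, C1qtnf7 and Pde7b, which mark another group of stromal nuclei in these libraries, rose in marker-rich barcodes beyond other barcodes. Chsy3 was at 780 CPM in KO_PBS and 148 in KO, C1qtnf7 at 105 and 27.7, and Pde7b at 196 and 75.0. Over other barcodes their ratios were 6.82, 4.28 and 2.61 in KO_PBS and 0.995, 0.787 and 0.752 in KO. The part of these tissues and nuclei in the calls was not tested. The lists are read beside the 4.90% of all genes that were higher. Of 32 matrix genes tested outside the rule, 4 were higher and 0 lower. Col8a1 was at 1752 CPM in KO_PBS and 175 in KO, beside 242 and 87.6 in other barcodes, and was called in 9 settings. Col4a3 was at 1807 and 145 CPM, Col4a6 at 487 and 32.8, and Col4a5 at 548 and 76.7. Those 3 chains were not called with the reference matched on UMIs, and Col4a5 was called in 3 settings. Of 24 transcription factors 4 were higher. Tfap2b was at 598 CPM in KO_PBS and 92.7 in KO, Lmx1b at 193 and 33.1, Tcf4 at 1122 and 233, and Zeb1, a factor of mesenchymal transition, at 129 and 38.5. Tcf4 was called in 8 settings, Tfap2b and Lmx1b in 7 and Zeb1 in 5. Tjp1 was at 374 and 126 CPM and Alcam, an adhesion molecule, at 989 and 444, and these were 2 of 25 junction genes. Alcam was called in 6 settings and its direction turned in 1. Slc7a5 and Slc1a3, amino acid transporters, were 2 of 27 pump genes. For junction and pump genes that is near the share of all genes. Fgf10 was at 1117 and 141 CPM and Slit2, a guidance ligand, at 1384 and 157. Fgf10 was called in 7 settings and Slit2 in 6, and Slit2 was not called with the reference matched on UMIs, where its ratios were 4.78 and 3.45.

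The genes with the largest ratio for KO_PBS over KO included Grm8, a glutamate receptor, at 1308 CPM (1247 to 1372) against 44.2 (37.5 to 51.7). In other barcodes it was at 132 and 39.2 CPM, and it was called in 10 settings. Unc13c, a synaptic vesicle protein, was at 659 and 21.7 CPM, Gm15155 at 127 and 1.71, Htr1f, a serotonin receptor, at 80.5 and 1.71, and Best3, a chloride channel, at 52.2 and 2.00. Higher genes were long. Their median span in the genome was 119 kb, against 28.2 kb for all genes tested, and 15.9 kb for the lower genes. Genes of at least 100 kb held 18.8% of the UMIs of marker-rich barcodes in KO_PBS and 11.6% in other barcodes, but 7.75% and 7.43% in WT and 9.59% and 9.67% in KO. Malat1, a long noncoding RNA held in the nucleus, was at 22292 CPM in KO_PBS and 5164 in KO, beside 11254 and 5804 in other barcodes. AY036118, a transcript related to ribosomal RNA, had 33186 CPM in WT, 18809 in KO but 301 in KO_PBS, and 35922, 19415 and 513 in other barcodes. Against other barcodes matched on UMIs, the ratio of Malat1 in KO_PBS was 0.989, and 1.98 without matching. The part of gene length and of nuclear RNA in the KO_PBS calls was not tested.

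The 2 genes lower in KO_PBS in all 10 settings were Chil1 and Lcn2. Chil1 was at 80.5 CPM against 611 in KO, and Lcn2, an iron-scavenging protein of inflammation, at 59.1 against 449, beside 41.1 and 82.1 in other barcodes. In WT they were at 13.8 and 23.9 CPM, so KO held the highest level of both. The named lower genes were S100a8, Mzb1, Dbndd2, Iglc1 and Iglc2. S100a8 had 3 UMIs in KO_PBS, 2.30 CPM (0.475 to 6.72), against 269 in KO, and Mzb1, a plasma cell protein, also had 3, against 106 CPM. Iglc1 and Iglc2, immunoglobulin light chains whose reads can be shared between near-identical copies, were at 4.60 and 6.14 CPM against 111 and 98.1. Other barcodes were lower in KO_PBS too, with S100a8 at 8.25 against 217 CPM, Mzb1 at 7.96 against 137 and Iglc1 at 11.8 against 103. The plasma cell list had a median log2 ratio of -4.25 in marker-rich and -3.66 in other barcodes. S100a8, Mzb1 and Iglc1 were called in 6 of 10 settings. Dbndd2 overlaps a gene listed for KO_PBS only, so its counts are not comparable. The interferon list had 0 of 40 counted, with a median log2 ratio of 0.003 in marker-rich and 0.02 in other barcodes. Of 11 cycling genes 3, Mki67, Ccna2 and Rrm2, were lower, beside 1.11% of all genes. The median log2 ratio of the list was -1.33 against -0.71 in other barcodes. Corneal epithelium markers moved by a similar amount, -1.71 against -1.07, with 0 of 12 counted. No cycling gene was enriched, and the median ratio of the list over other barcodes was 0.874, 0.935 and 0.678 for WT, KO and KO_PBS. The 3 calls are therefore not read as less cycling of endothelial nuclei, and the part of epithelial RNA was not tested.

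In KO_PBS set against WT, 311 of 9407 genes were higher (3.31%) and 48 lower (0.510%). This comparison shares its libraries with the previous ones, so it is not independent of them. Genotype, treatment and library cannot be told apart in it. Of the higher genes 262 were enriched in marker-rich barcodes of KO_PBS, which the call favours (8.82% of all genes were), and their median span was 138 kb against 28.4 kb for all tested. With the reference matched on UMIs 94 were higher, with a minimum of 1000 genes 191, and Chsy3 and Fbxl7 were the genes called in all 10 settings. Chsy3 is among the stromal markers given above, with a ratio over other barcodes of 1.17 in WT, and their part here was not tested either. The named higher genes were Hs3st5, a heparan sulfate sulfotransferase, at 313 CPM (283 to 345) against 13.8 (10.3 to 18.1), Unc13c at 659 against 29.4, Kcnh5, a potassium channel, at 82.8 against 3.98, Htr1f at 80.5 against 1.86, and Gbp8, an interferon-induced GTPase, at 72.1 against 1.59. The named lower genes were Grik1, a glutamate receptor, at 11.5 against 79.6 CPM, Fxyd4, a sodium pump modulator, at 5.37 against 57.3, Gm45941 at 4.60 against 52.5, Il31ra, a cytokine receptor, and Dbndd2. Il31ra had no UMI in KO_PBS but 247 in WT, 65.5 CPM (57.6 to 74.2), and was 28.5-fold lower when the floor of 3 counts stands in for 0. That is not a lower limit, because 0 UMIs in KO_PBS allow up to 2.83 CPM. Grik1, Fxyd4, Gm45941 and Il31ra were not enriched in the marker-rich barcodes of WT, and they were lower in other barcodes too, with Grik1 at 28.9 against 82.5 CPM. Of the lists outside the rule, 2 of 28 pump genes (Slc4a2 and Slc7a5), 1 of 31 matrix genes (Col4a6), 1 of 26 junction genes (Alcam), 2 of 24 transcription factors (Lmx1b and Tfap2b) and 1 of 22 mesenchymal genes (Smad2) were higher, and Fxyd4 of the pump list was lower. Mt3 was at 77.5 CPM in KO_PBS and 81.2 in WT, but at 37.0 and 11.4 in other barcodes, so its ratio over them was 2.09 in KO_PBS and 7.10 in WT.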

How the data were processed

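The authors deposited raw UMI counts per gene and barcode for 3 libraries, from Cell Ranger 7.0.1, as the file headers give it, and on mm10 per the submitters' processing notes. The annotation, intron counting and barcode filter are not given in the sources used here. The gene set differed (32285 IDs in WT and KO, 31053 in KO_PBS), so the 30406 IDs in every list were used. Counts were summed over marker-rich and other barcodes and given as CPM with exact 95% Poisson intervals, and counts under 3 were set to 3 in ratios. No doublet caller was run. Overlap with other marker rules is given instead, but it cannot show overlap with epithelium, whose rule was met by 0 barcodes. Genes were named as the 10 rule genes, the 25 with the largest of their lowest ratio, the 5 largest each way per comparison at 50 CPM or more, and members of the lists. A few genes outside this rule, such as Bsg, Dkk2, Wnt5a, Fgf10, Slit2, Chsy3, C1qtnf7, Pde7b, Lcn2 and Malat1, were chosen after their values were seen. Members and lists were chosen with earlier results of these data known. A common absolute share was added after seeing the data. Python 3.11.15, numpy 2.4.6, scipy 1.17.1 and pandas 2.3.3 were used, and the code was tested on simulated data. A lacripep arm named in the series text was not analysed here.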

Additional observations from a re-analysis of the deposited data

Results flagged for a closer look

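The following marker lists lay above other barcodes in some libraries and below them in others, and these differences between libraries were not tested. Lens markers in marker-rich barcodes were at 2.11, 2.28 and 0.666 times other barcodes for WT, KO and KO_PBS. Trabecular meshwork markers were at 1.15, 1.22 and 0.663, where the KO sum holds the high level of Chil1 given above. Plasma cell markers were at 1.11, 0.883 and 0.626. Vascular endothelium markers were at 1.50 in WT and 0.705 in KO_PBS, retinal pigment epithelium markers at 1.12 and 0.604, and photoreceptor markers at 1.14 and 0.592.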

How the results depend on the processing

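With a 10-fold share, 356, 306 and 23 barcodes of WT, KO and KO_PBS were marker-rich, 272 genes were lower in KO_PBS than in KO and 192 lower than in WT. Thinned to 1000 UMIs, 384 barcodes in WT and 149 in KO met the rule, 17 genes were lower in KO than in WT and 22 lower in KO_PBS than in KO. With the reference matched on UMIs, 182 genes were higher in KO_PBS than in KO and 94 higher than in WT, and with at least 1000 genes 191 were higher than in WT. With no UMI minimum, 66 genes were higher and 61 lower in KO than in WT, and 510 higher in KO_PBS than in WT. With the highest of the 3 absolute shares, 143 barcodes in WT and 33 in KO met the rule, 69 genes were enriched in every library, KO over WT had 8 higher genes, and KO_PBS over KO 294 higher and 39 lower. With the lowest, 1933 barcodes in WT and 8525 in KO_PBS met it, 49 genes were enriched in every library, KO_PBS over KO had 187 higher and 19 lower, and KO_PBS over WT 109 and 15. The cause was not tested. Of the 151 enriched genes, 71 were also enriched with a 10-fold share and 83 after thinning. Over the named genes and settings, 179 enrichment values moved little and 46 moved, as did 200 and 100 values between libraries. No paired analysis was possible because each group is 1 library.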
